A study of Mus musculus with 3 samples.

Results

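A set of 9 genes that encode classical targets of organ-specific autoimmunity was read in mature medullary thymic epithelial cells, the cells that show peripheral tissue antigens to developing T cells. They were taken by symbol: Rbp3 and Sag of the retina, Tg of the thyroid, Mog of myelin, Gad1, Gad2 and Ica1 of islets and neurons, Chrna1 of the muscle endplate and Atp4a of the stomach. All 9 were on the array, each with 1 probe set, among 19937 genes. The series holds 3 libraries, 1 for each genotype. AireKO came from Aire–/– mice, Sirt1cKO from Sirt1fl/fl mice carrying Foxn1-Cre, which deletes Sirt1 in thymic epithelium, and WT from Sirt1fl/fl mice without Cre, so the floxed Sirt1 allele is shared by Sirt1cKO and WT only. All mice were labelled C57b/6 and 6 weeks old, and typically 3 mice were pooled for a sort of cells with EpCAM, low Ly51 and high MHC class II but no CD45. With 1 library per genotype no difference could be tested, so each one describes a pair of libraries and carries no p-value, and the number of arrays limits the precision.

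In the thymus, T cells whose receptors bind self-antigens strongly are deleted or turned into regulatory cells. Medullary epithelial cells supply antigens of distant organs for this step, many of them under the transcriptional regulator Aire, each in a small share of the cells. Aire deficiency leads to autoimmunity against several organs, and in mice the retinal protein encoded by Rbp3 is a known target. Sirt1 is a protein deacetylase. In bulk samples, fewer cells carrying a transcript and less transcript per cell cannot be told apart.

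Levels are log2 of the deposited intensity. The background was set by olfactory receptor genes, few of which are active beyond olfactory tissue, and a level counted as above background when it passed the 95th percentile of the 1027 such genes in its own library. This percentile lay at 6.89 in AireKO, 6.34 in Sirt1cKO and 6.02 in WT, so a dim gene had to be brighter to count in AireKO. The median of these genes was 5.37 in AireKO, 4.90 in Sirt1cKO and 4.58 in WT. Setting the 3 medians equal, a scaling added after the values were seen, lowers every difference by 0.79 in AireKO minus WT and by 0.32 in Sirt1cKO minus WT, so small positive differences in the deposited values change sign under it, and 34.1% of all genes are then at least 2-fold lower in AireKO than in WT. The labels conflict: the titles and genotype fields of the knockout libraries agree, but their description fields name each other's genotype. The targeted genes did not settle it, with Aire at 11.55 in AireKO, 11.24 in Sirt1cKO and 11.97 in WT, and Sirt1 at 11.42, 11.27 and 11.40. Whether the probes of these genes lie in the deleted parts was not tested. The names used here follow the titles. Bpifb1, an antigen gene known to need Aire in mouse medullary epithelium, differed from WT by -3.30 in the library titled AireKO and by 0.14 in the one titled Sirt1cKO. Gp2 differed by -1.81 and 0.09, and Bpifa1 by -3.12 and -0.12. Other antigen genes were lower in both libraries, Cyp1a2 at -3.23 and -1.18 and Alb at -2.85 and -1.34. These values were not used to assign the labels. Sex-linked genes set the libraries apart too, with Xist at 6.75 in AireKO, 11.46 in Sirt1cKO and 12.17 in WT, and Eif2s3y at 9.75, 8.92 and 4.23, and H2-Ea was bright in AireKO alone, at 13.23. Sex, which the labels do not give, and genotype cannot be told apart in these libraries. Whether the H2-Ea difference marks another strain background, although all mice were labelled C57b/6, was not tested. Such a difference could not be told apart from genotype either. All 15 markers of mature medullary epithelium on the array were above background in all 3 libraries, with a median difference of -0.52 in AireKO minus WT and -0.37 in Sirt1cKO minus WT. In AireKO 3 of the 15 were 2-fold lower than in WT, beside 5.51% of all genes: Cldn4 at -1.23, Cldn3 at -1.16 and Krt5 at -1.09. This count was 1 after quantile normalization, 1 after loess and 2 with equal gene medians, beside 4.67%, 4.28% and 4.12% of all genes. It was 11 with equal olfactory receptor medians, beside 34.1%. There were 0 at 2-fold higher, but Cd80, Cd86 and Ciita were above WT as deposited, at 0.76, 0.70 and 0.29. Equal olfactory receptor medians lower each of these by 0.79. Of 8 cortical epithelial genes 3 were 2-fold lower in AireKO than in WT as deposited, beside the same 5.51%, with a median of -0.49. Their count was 2 after quantile normalization, 1 after loess, 1 with equal gene medians and 5 with equal olfactory receptor medians. Of 12 fibroblast and endothelial genes 3 were 2-fold higher and 1 lower in AireKO by measured values, beside 3.20% and 5.51% of all genes. With levels within background taken at the background, 1 was higher and 1 lower. The higher one was Dcn, the matrix proteoglycan decorin, at 11.98 in AireKO, 10.87 in Sirt1cKO and 10.08 in WT. The lower one was Pdgfrb, at -1.02 in AireKO minus WT. By measured values 0 of the 12 were 2-fold lower after quantile normalization, loess or equal gene medians. The part of such differences in cell makeup in the values below was not tested.

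Above background were 4 of the 9 antigen genes in AireKO, 6 in Sirt1cKO and 6 in WT. Over all genes the shares were 56.1% in AireKO, 67.1% in Sirt1cKO and 72.7% in WT. Tg, Gad1, Ica1 and Atp4a passed in every library. Sag and Chrna1 passed in Sirt1cKO and WT but not in AireKO, and Rbp3, Mog and Gad2 passed in none. Of genes above background in WT, 23.3% were within background in AireKO, against 2 of the 6 antigen genes. In Sirt1cKO 8.39% of them were within background, against 0 of the 6.

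**Figure D1:**
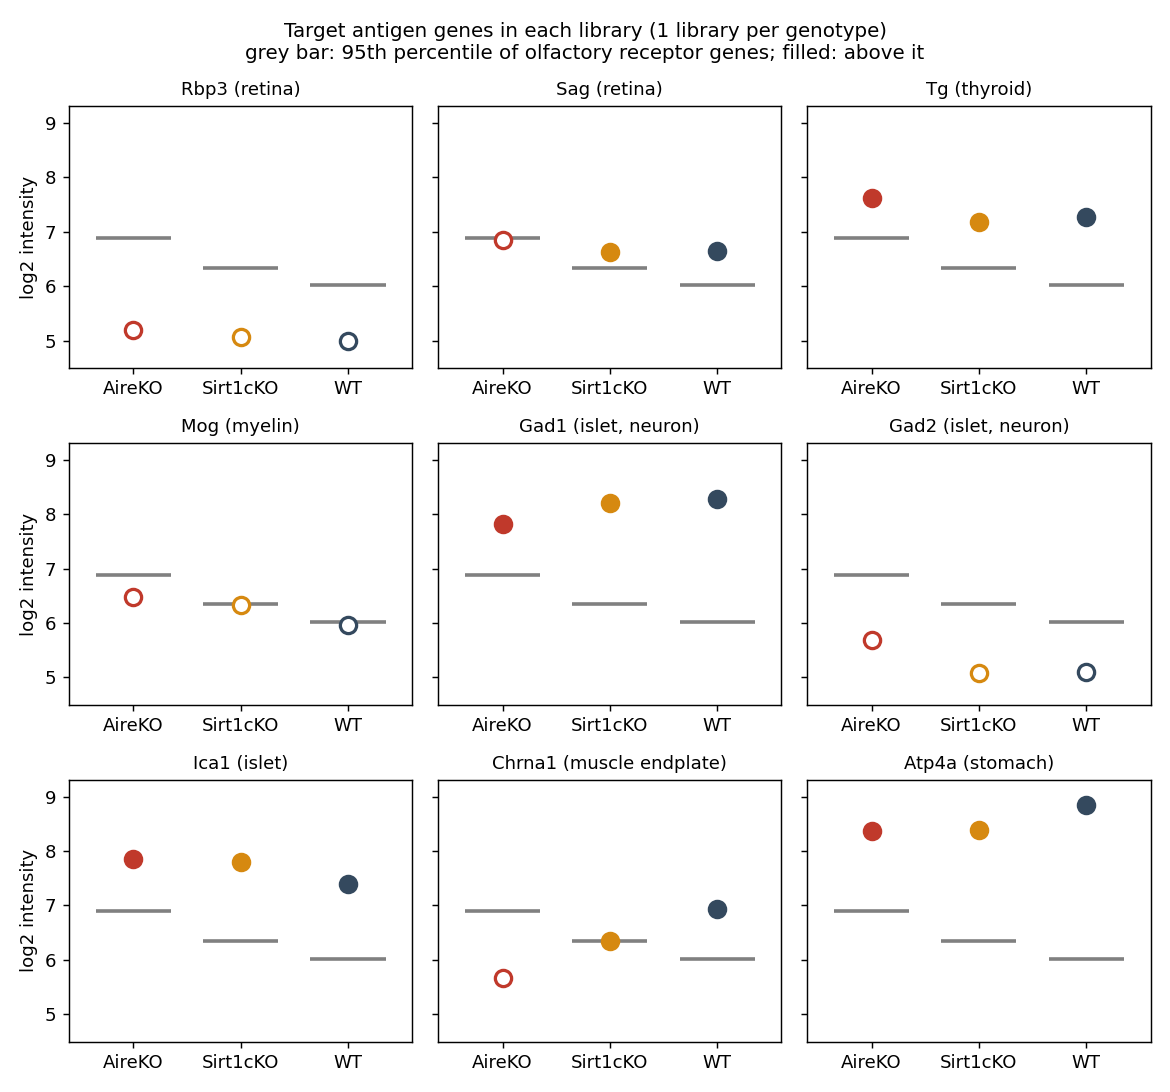
Log2 intensity of the 9 antigen genes in the AireKO, Sirt1cKO and WT libraries, 1 point per library; the grey bar is the 95th percentile of olfactory receptor genes in that library, and filled points lie above it. Chrna1 is at 5.66 in AireKO, below its bar, and at 6.94 in WT, above it, while Rbp3 and Gad2 are below the bar in all 3 libraries.

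Of the 9 genes, Chrna1 differed most between the libraries. It encodes the alpha subunit of the muscle acetylcholine receptor, the antigen of myasthenia gravis. Its log2 level was 5.66 in AireKO, 6.35 in Sirt1cKO and 6.94 in WT, or intensities of 50.5, 81.8 and 123. AireKO was within background, Sirt1cKO stood 0.01 above the background percentile and WT 0.93 above it. Ranked within the olfactory receptor genes of the same library, Chrna1 lay above 635 of 1027 in AireKO, 978 in Sirt1cKO and 1017 in WT. The measured difference was -1.28 for AireKO minus WT, -0.59 for Sirt1cKO minus WT and -0.70 for AireKO minus Sirt1cKO. Since the AireKO level was within background, the decrease there is given as at least 1.04-fold. A 2-fold decrease is therefore not established by these libraries, although the measured difference passes it, and with the knockout labels exchanged the 2 differences from WT trade places.

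The region around the Chrna1 start site is shown because this was the 1 antigen gene past 2-fold by measured values. Those of the retinal pair are shown as genes of another tissue. Chrna1, Rbp3 and Sag were all within background in AireKO, while Chrna1 and Sag, but not Rbp3, passed in Sirt1cKO and WT. In no library do the sequences thus set an expressed Chrna1 against a silent retinal pair. RefSeq promoters of GRCm38.p6, 250 bases before to 50 after the start, were found for 8 of the 9 genes. Capitals mark CANNTG, the E-box bound by myogenic factors, in Chrna1, and GGATTA, the core bound by the photoreceptor factor Crx, in Rbp3 and Sag. Both strands were searched.
Chrna1, chr2:73580289-73580588, minus strand: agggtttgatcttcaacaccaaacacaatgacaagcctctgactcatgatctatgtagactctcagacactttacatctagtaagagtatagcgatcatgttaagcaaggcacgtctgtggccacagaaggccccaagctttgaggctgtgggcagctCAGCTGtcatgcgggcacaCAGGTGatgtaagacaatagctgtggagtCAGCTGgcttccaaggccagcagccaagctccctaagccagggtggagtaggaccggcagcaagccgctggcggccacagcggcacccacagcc
Rbp3, chr14:33953753-33954052, plus strand: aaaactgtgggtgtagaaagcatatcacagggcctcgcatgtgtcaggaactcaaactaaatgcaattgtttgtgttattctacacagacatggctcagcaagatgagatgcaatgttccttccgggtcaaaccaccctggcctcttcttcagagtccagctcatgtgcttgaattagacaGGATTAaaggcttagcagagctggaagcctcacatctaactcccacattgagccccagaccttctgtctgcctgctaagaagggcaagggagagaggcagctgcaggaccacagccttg
Sag, chr1:87803430-87803729, plus strand: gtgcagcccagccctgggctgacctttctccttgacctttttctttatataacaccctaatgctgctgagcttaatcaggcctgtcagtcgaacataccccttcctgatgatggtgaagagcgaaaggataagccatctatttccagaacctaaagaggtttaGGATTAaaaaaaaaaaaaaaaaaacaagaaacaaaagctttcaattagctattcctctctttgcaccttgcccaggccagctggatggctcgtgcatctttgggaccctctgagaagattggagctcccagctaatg
The Chrna1 window held 3 E-boxes, and 17.6% of all 32851 promoters of this length held 3 or more. E-boxes did not set it apart from the other antigen genes, since the windows of Rbp3 and of the first Ica1 start site held 4 each and that of Atp4a held 3. Rbp3 and Sag each held 1 GGATTA, as did Gad1, grouped here with islets and neurons, and 7.06% of promoters held it at least once. These matches are letters in a window and say nothing of binding in these cells.

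Other subunits of the muscle receptor were ordered differently. Chrnb1, the beta subunit, stood at 7.18 in AireKO, 7.12 in Sirt1cKO and 6.94 in WT. Chrnd, the delta subunit, stood at 6.92, 7.06 and 6.59 in the same order, and Chrng, the fetal gamma subunit, at 7.46, 6.96 and 6.92. All were above background in every library. In AireKO minus WT they were positive under the deposited, quantile, loess and gene-median scalings, and negative, at -0.55, -0.46 and -0.25, with equal olfactory receptor medians, where Chrna1 was at -2.07. The adult subunit gene Chrne stood at 6.56 in AireKO, 5.96 in Sirt1cKO and 6.22 in WT. Its AireKO level was above that of WT by 0.33 as deposited, but it passed its library's background in WT alone. Over 12 endplate genes the median difference was 0.26 for AireKO minus WT and -0.08 for Sirt1cKO minus WT, against 0.02 and 0.00 over all genes. In either, 0 of 12 were 2-fold lower, beside 5.51% of all genes in AireKO and 1.13% in Sirt1cKO. With equal olfactory receptor medians the AireKO median of the list was -0.53 and 4 of 12 were 2-fold lower, beside 34.1% of all genes. Closest to 2-fold in the deposited values were Nefl, a neurofilament gene, at -0.92, and Agrn, which encodes the receptor-clustering protein agrin, at -0.91, both in AireKO minus WT. Among 14 skeletal muscle genes, 1 was at least 2-fold lower in AireKO, beside 5.51% of all genes. This was the cardiac actin gene Actc1, at 6.92 in AireKO, 7.77 in Sirt1cKO and 8.44 in WT. Its differences from WT of -1.52 and -0.66 followed the order seen for Chrna1. The muscle regulator gene Myod1 stood at 6.97, 6.76 and 6.52, and Ckm, muscle creatine kinase, at 8.09, 7.85 and 7.55, both highest in AireKO, though below WT with equal olfactory receptor medians, at -0.34 and -0.25. The median of the list in AireKO minus WT was 0.17 as deposited, -0.04 after quantile normalization and -0.62 with equal olfactory receptor medians.

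Atp4a encodes the catalytic subunit of the gastric proton pump, the antigen of autoimmune gastritis. It stood at 8.36 in AireKO, 8.38 in Sirt1cKO and 8.85 in WT, all above background. Both knockout libraries were below WT and close to each other, with differences of -0.49 and -0.47. Atp4b, the pump's beta subunit, stood at 7.98 in AireKO, 7.92 in Sirt1cKO and 7.83 in WT, slightly higher in AireKO as deposited but at -0.64 with equal olfactory receptor medians. Of 14 stomach genes, 8 were at least 2-fold lower in AireKO than in WT by measured values, beside 5.51% of all genes. With levels within background taken at the background 6 were, beside 4.62%. The median was -1.07, or between -1.86 and -0.96 under the other scalings. Over the medullary markers it was -0.52 as deposited and between -1.31 and -0.35 under the other scalings. The pepsinogen gene Pgc was at least 5.01-fold lower and the mucin gene Muc5ac at least 5.57-fold lower there. Tff1, a trefoil peptide of the stomach surface, stood at 8.45 in AireKO, 9.31 in Sirt1cKO and 10.24 in WT. In Sirt1cKO 1 of the 14 was 2-fold lower, Pgc at -1.42, beside 1.13% of all genes, and the median was -0.33. Cblif, the intrinsic factor gene and another target in gastritis, stood at 7.19, 6.68 and 6.65, again highest in AireKO but at -0.26 from WT with equal olfactory receptor medians.

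Ica1, Gad1 and Gad2 are islet autoantigens of type 1 diabetes, and Gad1 and Gad2 make the transmitter GABA. Ica1, which encodes a protein of Golgi and secretory granule membranes, stood at 7.86 in AireKO, 7.79 in Sirt1cKO and 7.39 in WT, above background in all 3. Its differences from WT were 0.47 and 0.39, and the first was -0.32 with equal olfactory receptor medians. Gad1 stood at 7.82 in AireKO, 8.20 in Sirt1cKO and 8.28 in WT, above background in all 3, with differences of -0.46 and -0.09. Its isoenzyme gene Gad2 was within background throughout, at 5.69 in AireKO, 5.09 in Sirt1cKO and 5.10 in WT, and no fold is given. Gad1 thus lay above at least 99.5% of olfactory receptor genes in each library, and Gad2 above 63.3%, 58.4% and 75.9%.

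Most other islet genes were close between the libraries. Of 14 on the array, 0 were 2-fold lower or higher than in WT in either knockout library. Over all genes the shares were 5.51% lower and 3.20% higher in AireKO, and 1.13% and 0.582% in Sirt1cKO. The medians were 0.09 for AireKO minus WT and -0.03 for Sirt1cKO minus WT. The first was -0.70 with equal olfactory receptor medians, where 3 genes were 2-fold lower, a smaller share than the 34.1% of all genes. The insulin gene Ins2 stood at 7.00 in AireKO, 7.33 in Sirt1cKO and 7.85 in WT. Ptprn, which encodes the islet antigen IA-2, stood at 7.11, 6.93 and 7.02. The granule protein gene Chga stood at 9.16 in AireKO, 10.43 in Sirt1cKO and 10.02 in WT, the 1 islet gene with knockout libraries over 2-fold apart, at -1.28. The genes that act with GABA or at synapses, 10 on the array, also had 0 past 2-fold from WT, beside the same shares of all genes. With equal olfactory receptor medians their AireKO median was -0.71 and 2 of 10 were 2-fold lower, beside 34.1% of all genes. Of 8 genes for Ica1's relatives and Golgi partners 0 were past 2-fold, again beside those shares, but the median in AireKO minus WT was -0.43. With equal olfactory receptor medians it was -1.22 with 5 of 8 genes 2-fold lower, beside 34.1% of all genes. As deposited, the GTPase gene Arf1 was at -0.81, opposite in sign to Ica1 at 0.47, while both were negative with equal olfactory receptor medians, at -1.60 and -0.32.

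Tg encodes thyroglobulin, the precursor of thyroid hormone and an antigen of autoimmune thyroiditis. It stood at 7.61 in AireKO, 7.18 in Sirt1cKO and 7.27 in WT, above background in all 3, with differences from WT of 0.34 and -0.09, the first at -0.45 with equal olfactory receptor medians. Sla, an adaptor gene of lymphocytes whose annotated span lies inside that of Tg, stood at 7.64, 7.26 and 7.32, with differences of 0.32 and -0.07. Whether the Tg probe set takes up signal of Sla was not tested. Of 11 thymocyte markers, 6 were above background in AireKO, 8 in Sirt1cKO and 8 in WT, beside 56.1%, 67.1% and 72.7% of all genes. The log2 of their summed intensities was 10.84, 10.86 and 10.49 in that order, and their part in the Tg level was not tested. Other thyroid genes did not share one direction as deposited. Iodotyrosine deiodinase, Iyd, stood at 5.25 in AireKO, 6.13 in Sirt1cKO and 6.71 in WT, above background in WT alone, but the WT level was under the AireKO background, so no fold is given. The iodide transporter gene Slc5a5 was at 0.41 in AireKO minus WT as deposited, a sign that the shift of 0.79 with equal olfactory receptor medians turns. Duox2, the oxidase that supplies peroxide for iodination, was at least 1.67-fold lower in AireKO than in WT, and the deiodinase gene Dio1 stood at 9.56 in AireKO, 9.61 in Sirt1cKO and 10.60 in WT. The Dio1 difference of -1.04 in AireKO minus WT was inside 2-fold after quantile normalization, loess and equal gene medians, at -0.86, -0.83 and -0.93. Of 11 thyroid genes 3 were 2-fold lower in AireKO by measured values, beside 5.51% of all genes. With background as the bound 1 was, Dio1, beside 4.62%. In Sirt1cKO 0 were lower, beside 1.13%. The AireKO median of the list was -0.09 as deposited and between -0.88 and 0.02 under the other scalings.

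Mog encodes a myelin surface protein that induces experimental encephalomyelitis in mice. It stood under the background percentile at 6.48 in AireKO, 6.33 in Sirt1cKO and 5.96 in WT, short of it by 0.40, 0.01 and 0.05. No fold is given. Mbp, myelin basic protein, was above background in all 3 libraries at 9.10 in AireKO, 8.82 in Sirt1cKO and 8.60 in WT, highest in AireKO as deposited and below WT, at -0.29, with equal olfactory receptor medians. Of 13 myelin and oligodendrocyte genes 2 were 2-fold lower in AireKO, Mal at -1.10 and Cnp at -1.04, beside 5.51% of all genes. Cnp, at -1.01, was the 1 such gene in Sirt1cKO, beside 1.13%. After loess Mal and Cnp stood inside 2-fold, at -0.98 and -0.83 in AireKO minus WT. Cnp in Sirt1cKO minus WT was inside it at -0.95, -0.96 and -0.95 after quantile normalization, loess and equal gene medians. Neither Mal nor Cnp is limited to myelin.

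Rbp3 encodes the retinoid-binding protein between photoreceptors and pigment epithelium, and Sag encodes the photoreceptor arrestin. Both are antigens of autoimmune uveitis. Rbp3 was within background in all 3 libraries, at 5.19 in AireKO, 5.07 in Sirt1cKO and 4.99 in WT, so its dependence on either genotype could not be read. Sag stood at 6.85 in AireKO, 6.63 in Sirt1cKO and 6.65 in WT. The AireKO level was the highest of the 3, yet it was 0.04 short of its library's background percentile, while Sirt1cKO and WT passed theirs by 0.29 and 0.63. Of 17 other retinal genes 1 was above background in AireKO, 3 in Sirt1cKO and 6 in WT, beside 56.1%, 67.1% and 72.7% of all genes. Their median difference in AireKO minus WT was 0.12 as deposited and -0.67 with equal olfactory receptor medians. Rom1, a disc membrane gene, was the 1 that passed in every library, at 6.89 in AireKO, 6.56 in Sirt1cKO and 6.65 in WT. In AireKO it barely passed, since the background percentile there was also 6.89 as rounded. The photoreceptor factor gene Crx was within background throughout, at 5.46, 5.30 and 5.23. As deposited, 0 of the 17 genes were past 2-fold in either comparison with WT. Over all genes 5.51% were lower and 3.20% higher in AireKO, and 1.13% and 0.582% in Sirt1cKO.

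**Figure D2:**
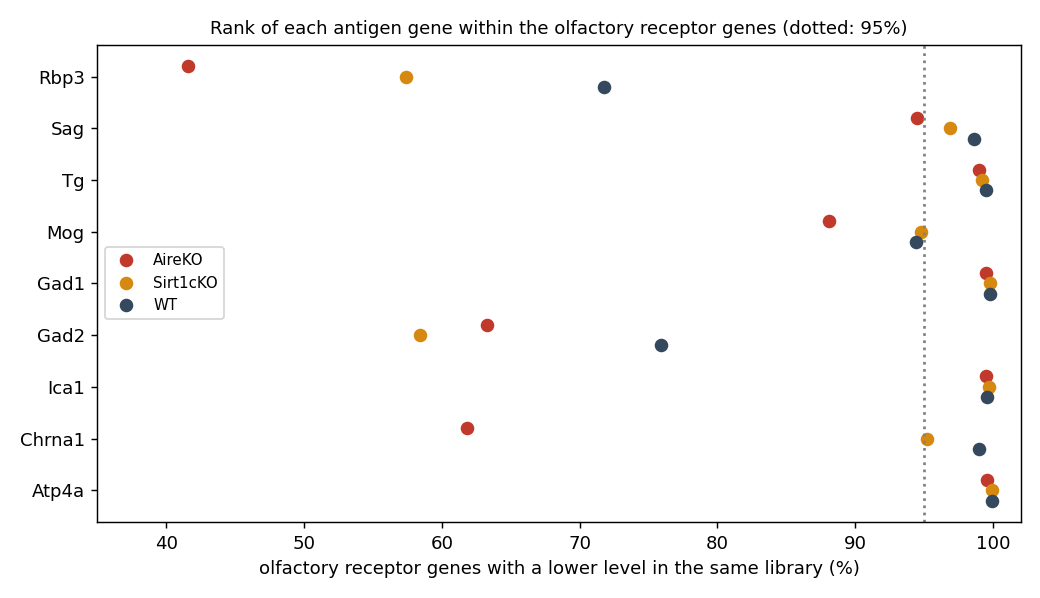
Share of olfactory receptor genes (%) with a lower level than each antigen gene in the same library; 1 point per library, with AireKO, Sirt1cKO and WT from top to bottom in each row and a dotted line at 95%. Gad1, Ica1, Tg and Atp4a lie right of the line in all libraries, while Chrna1 lies at 61.8% in AireKO and 95.2% in Sirt1cKO, with WT farther right.

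Over the 9 antigen genes, 1 was at least 2-fold lower and 0 were 2-fold higher in AireKO than in WT, against 5.51% and 3.20% of all genes. The median difference was 0.21, against 0.02 over all genes and 0.70 over olfactory receptor genes. In Sirt1cKO 0 were 2-fold lower and 0 higher than in WT, against 1.13% and 0.582% of all genes, and the median was -0.01. Between AireKO and Sirt1cKO 0 were past 2-fold, against 1.74% of all genes lower and 1.00% higher. With levels within background taken at the background, 0 of 9 were past 2-fold in any of the 3 comparisons. Rbp3, Mog and Gad2, within background in all 3 libraries, could not be called this way. Over all genes the shares were 4.62% lower and 1.53% higher in AireKO than in WT. They were 0.948% lower and 0.466% higher in Sirt1cKO than in WT, and 1.39% lower and 0.557% higher in AireKO than in Sirt1cKO. Counts of 0 or 1 among 9 genes lie near what these shares give. Both comparisons with WT use the same WT library.

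The scaling of the libraries decided the sign for most of the antigen genes. Chrna1, Gad1 and Atp4a were below WT in AireKO under all 5 scalings, the deposited values, quantile normalization, loess, equal gene medians and equal olfactory receptor medians. Their differences ran from -2.07 to -1.17 for Chrna1, -1.25 to -0.28 for Gad1 and -1.28 to -0.27 for Atp4a. The other 6 changed sign, all of them negative only once the olfactory receptor medians were set equal, except Rbp3, which was also negative after quantile normalization and loess. In Sirt1cKO minus WT, Chrna1, Atp4a, Tg and Gad1 were negative and Mog and Ica1 positive under all 5. Equal gene medians raised all AireKO minus WT differences by 0.11. By rank within olfactory receptor genes, 9 of 9 antigen genes were lower in AireKO than in WT, as were 93.6% of all other genes, and 5 of 9 were lower in Sirt1cKO than in WT, as were 59.3% of all other genes.

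**Figure D3:**
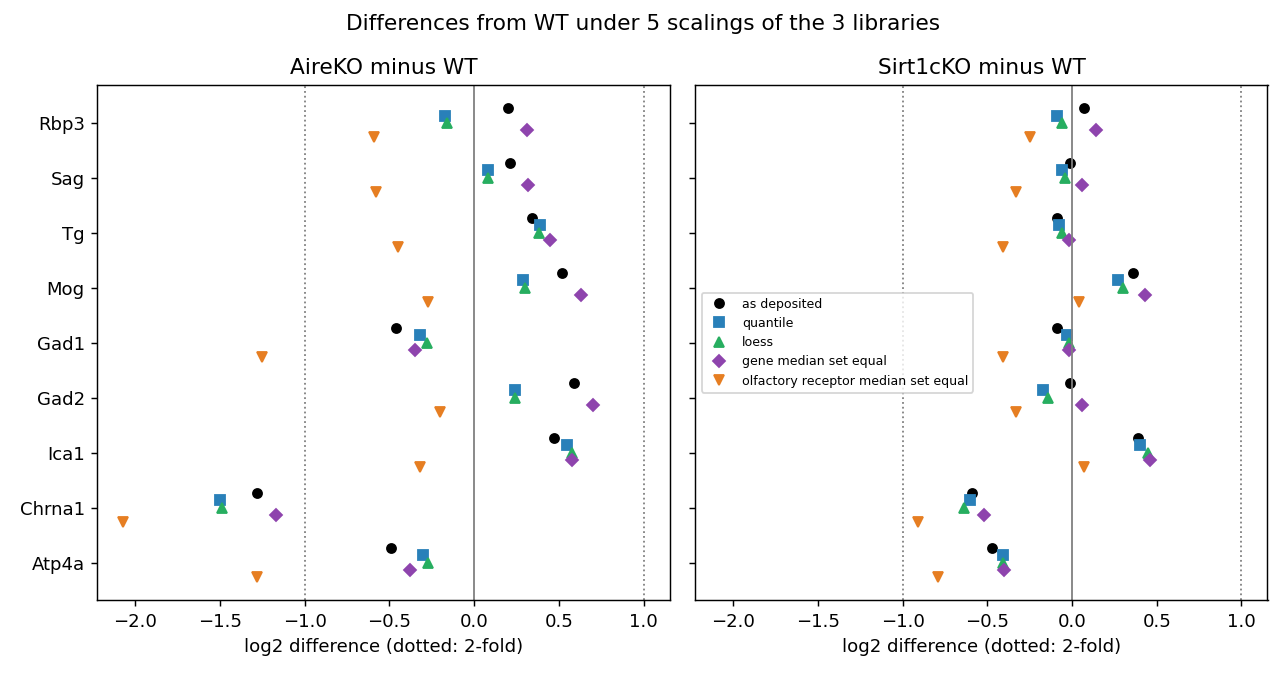
Log2 differences of the 9 antigen genes, AireKO minus WT on the left and Sirt1cKO minus WT on the right, under 5 scalings marked by symbol; dotted lines mark 2-fold. Chrna1 lies between -2.07 and -1.17 in AireKO minus WT, while Ica1 runs from -0.32 to 0.58.

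A list of 35 other autoimmune target antigens on the array held more genes past 2-fold than the 9 did. In AireKO 9 were 2-fold lower than in WT by measured values, 7 with background as the bound, and 0 were higher, with a median of -0.35, beside 5.51% of all genes lower by measured values and a median of -0.52 over the medullary markers. With equal olfactory receptor medians 21 were lower, beside 34.1% of all genes, and under quantile normalization, loess and equal gene medians 9 were, beside 4.67%, 4.28% and 4.12%. Bpifb1, a lung antigen of Aire deficiency, stood at 5.87 in AireKO, 9.32 in Sirt1cKO and 9.17 in WT and was at least 4.87-fold lower in AireKO. Cyp1a2, a liver cytochrome targeted in Aire-deficient patients, was at least 2.55-fold lower in AireKO, and Gp2, the pancreatic and microfold cell glycoprotein, stood at 9.59 in AireKO, 11.48 in Sirt1cKO and 11.40 in WT. In Sirt1cKO 4 of the 35 were 2-fold lower, 3 with the bound, beside 1.13% and 0.948% of all genes, including Cyp1a2 at -1.18 and Alb, serum albumin, at -1.34. Several genes of this list are known Aire targets, so its direction in AireKO is no independent evidence.

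**Figure D4:**
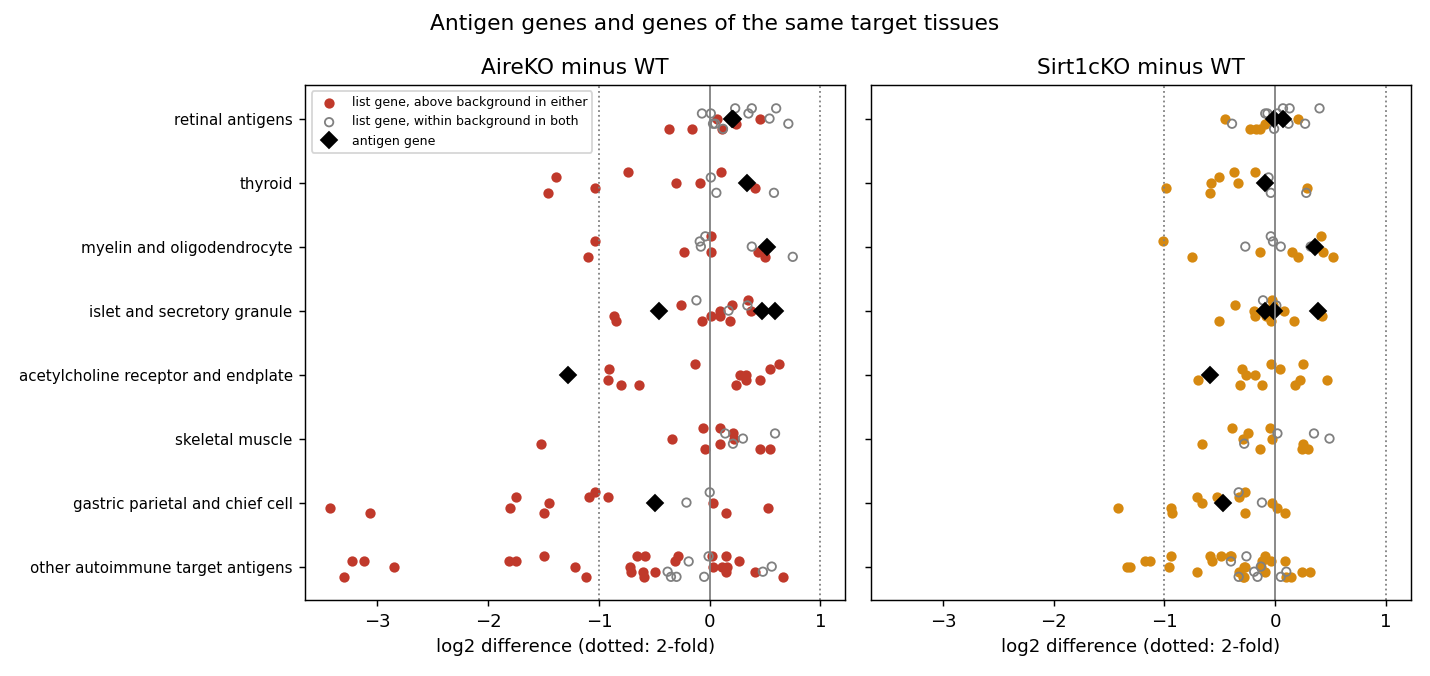
Log2 differences from WT in AireKO (left) and Sirt1cKO (right) for the antigen genes (black diamonds) and the other genes of their target tissues; filled circles are above background in either library of the pair and open circles in neither. The stomach genes reach -3.43 in AireKO minus WT while Atp4a is at -0.49, and Chrna1 at -1.28 is the lowest point in its row.

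For the 4 antigen genes above background in every library, the genes with the most similar pair of differences from WT were sought among 10538 others, by Euclidean distance. Nearest to Tg were Mybpc1, Rgs1 and Col3a1, to Gad1 Ppp6r2, Commd8 and Pyurf, to Atp4a Trmt1l, Sec22b and Pf4, and to Ica1 Polr2j, Prpf38a and Rpl41. Distances were 0.002 to 0.015, but 121 to 296 genes lay within 0.1 of each, so such a match is common with 3 libraries. Of the genes adjacent to Chrna1 in the genome, Wipf1 was at 0.36 and Chn1 at -0.27 in AireKO minus WT as deposited, and at -0.43 and -1.06 with equal olfactory receptor medians, where Chrna1 was at -2.07. Beside Ica1, the glucocorticoid-induced gene Glcci1 stood at 10.55 in AireKO, 10.00 in Sirt1cKO and 9.56 in WT, ordered as Ica1 was.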

How the data were processed

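Amplified RNA of 30000 sorted cells per genotype was read on Affymetrix Mouse Gene 1-ST arrays, per the series' design text. Each deposited value is a linear probe-set intensity. The submitters' processing notes name RMA, with the version and the return to linear values not stated. Log2 was taken with no further normalization.

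Libraries were grouped by title. Of 34760 probe sets, 21640 had 1 symbol, 1321 several and 11799 none. The brightest mean probe set stood for each gene. Where 1 of 2 levels was within background, the fold was taken against the background percentile. The members and the 15 lists were chosen with earlier results of these data known. From each list, at most 5 genes above background in a library were eligible by name, in order of the largest difference from WT. Partner subunits, Cblif, Ptprn, Crx, Sla and neighbouring genes were named for their role or place. Cd80, Cd86 and Ciita were named as medullary markers higher in AireKO as deposited. Alternatives were other scalings (loess span 0.3), probe sets, backgrounds, folds and exchanged labels. The code was tested on simulated data. Software was statsmodels 0.14.6, pandas 2.3.3 and numpy 2.4.6 under Python 3.11.15.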

Additional observations from a re-analysis of the deposited data

How the results depend on the processing

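No paired analysis was possible because each genotype has 1 library. Of 9 antigen genes 1 was 2-fold lower in AireKO minus WT, and 0 were at 3-fold, with exchanged labels or with levels within background taken at the background, against 3 with equal olfactory receptor medians, a scaling chosen after seeing the data that put 34.1% of all genes 2-fold lower. Their median difference of 0.21 in AireKO minus WT became 0.08 after quantile normalization, 0.08 after loess and 0.32 with equal gene medians. It became -0.01 with exchanged labels and -0.58 with equal olfactory receptor medians. With background as the bound it was -0.03. Rbp3, Mog and Gad2 had no value under that bound, so its median leaves them out and its count could not call them. In Sirt1cKO minus WT the median of -0.01 became 0.21 with exchanged labels and -0.33 with equal olfactory receptor medians, and 1 gene instead of 0 was lower at 1.5-fold or with exchanged labels. At 1.5-fold 1 gene was higher in AireKO minus WT, and 1 lower and 1 higher in AireKO minus Sirt1cKO, where equal olfactory receptor medians also gave 1 lower. Under the alternatives run, Rbp3 was never above background. Sag passed in AireKO after loess, at the 90th percentile or against vomeronasal receptor genes, and in no library at the 99th. Mog passed in all 3 libraries and Gad2 in WT against vomeronasal receptor genes. Mog also passed in Sirt1cKO and WT at the 90th percentile, and in Sirt1cKO with the mean of probe sets. At the 99th percentile Chrna1 passed in WT alone. Signal near background limits what Rbp3, Gad2, Mog and Sag can show.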
